A study of Homo sapiens with 9 samples.

Results

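The genes described here are 9 genes of HLA class I antigen presentation, HLA-B, HLA-C, HLA-E, HLA-F, B2M, TAP1, TAP2, TAPBP and NLRC5. They were found by gene symbol among the 22295 entries of the expression table, where each has 1 row, and they were chosen by their measured levels in the sh-Ptbp1-7d libraries. Their differences at 7 days post infection (dpi) are therefore given as a description with no test. Their test is the comparison at 3 dpi, which is not independent of the choice, since earlier results of these data were known. All 9 libraries were made from total RNA of U251, an established human glioblastoma cell line, infected with a lentivirus that carries an sh-RNA. There were 3 groups of 3 libraries. The control group, sh-Luci-3d, received an sh-RNA against luciferase and was harvested at 3 dpi. The early knockdown group, sh-Ptbp1-3d, received a single sh-RNA against PTBP1, chosen by the study among several, and was harvested at 3 dpi, and the late knockdown group, sh-Ptbp1-7d, received the same sh-RNA and was harvested at 7 dpi. In the study's protocol, neuronal induction medium with forskolin and dorsomorphin replaced the growth medium 2 days after infection, so the 7 dpi cells had spent longer in it. No control of 7 dpi was analysed here, so the knockdown, the days after infection and the time in this medium cannot be told apart at 7 dpi. No label says whether the 3 libraries of a group came from separate cultures, and p-values measure only the spread between these libraries.

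HLA class I molecules display peptides from inside the cell to CD8 T cells and natural killer cells. Each consists of a heavy chain, encoded by an HLA gene, and the light chain beta-2-microglobulin, encoded by B2M. Proteasomes cut the peptides in the cytosol, TAP1 and TAP2 form the transporter that carries them into the endoplasmic reticulum, and tapasin, encoded by TAPBP, holds the empty heavy chain at the transporter while peptides are loaded. NLRC5 acts in the nucleus as the transactivator of class I genes, and interferons raise the transcription of the pathway in many cell types. Neurons and glia of the healthy brain carry little of it.

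The promoters are shown because class I genes are known to share upstream elements, namely an interferon-stimulated response element (ISRE), a kB site, a cyclic AMP response element (CRE) and an inverted CCAAT box. RefSeq promoter sequences on GRCh38.p14 matched 7 of the 9 genes, HLA-B, HLA-C, HLA-F, B2M, TAP1, TAP2 and TAPBP. The stretches below lie upstream of the start annotated for each RefSeq promoter, read 5′ to 3′ on the strand of the gene. Distances are counted from that start, which can differ from the GENCODE v29 gene bounds printed further below. By those bounds the stretches of HLA-F, TAP1 and TAPBP lie inside the gene, and that of TAP2 lies partly inside. The capitals mark the motif matches.
HLA-B (chr6:31357226-31357365, minus strand): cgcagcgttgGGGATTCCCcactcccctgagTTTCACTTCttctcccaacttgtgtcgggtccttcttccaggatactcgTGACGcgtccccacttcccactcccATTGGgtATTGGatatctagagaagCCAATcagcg
HLA-C (chr6:31272139-31272294, minus strand): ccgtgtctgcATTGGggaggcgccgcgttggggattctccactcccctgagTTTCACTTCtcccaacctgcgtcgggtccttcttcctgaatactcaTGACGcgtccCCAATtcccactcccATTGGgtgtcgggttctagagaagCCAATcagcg
HLA-F (chr6:29723268-29723386, plus strand): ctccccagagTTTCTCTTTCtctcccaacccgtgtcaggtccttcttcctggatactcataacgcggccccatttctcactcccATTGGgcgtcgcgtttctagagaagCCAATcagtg
B2M (chr15:44711363-44711477, plus strand): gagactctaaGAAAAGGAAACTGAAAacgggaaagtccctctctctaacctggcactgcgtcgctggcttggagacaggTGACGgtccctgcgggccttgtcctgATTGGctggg
TAP1 (chr6:32853818-32853848, minus strand): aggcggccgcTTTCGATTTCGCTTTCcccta
TAP2 (chr6:32838765-32838812, minus strand): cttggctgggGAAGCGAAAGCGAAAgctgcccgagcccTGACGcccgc
TAPBP (chr6:33314079-33314108, minus strand): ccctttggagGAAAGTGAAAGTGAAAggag

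The motifs were searched on both strands in the 250 bases before the start, and the share of all 35116 RefSeq promoters with a match in a window of that length is given beside each. The ISRE consensus GAAANNGAAA, added after these promoters were seen, was found in B2M, HLA-F, TAP1, TAP2 and TAPBP, 5 of the 7 genes. It was found in 3.02% of all promoters. A form that is shorter by a base, GAANNGAAA, was found in HLA-B, HLA-C and TAP2 and in 6.56% of all promoters, and in TAP2 it overlaps the consensus. The kB core GGGANTCCC was found in HLA-B and in 0.772% of all promoters. The CRE core TGACG was found in B2M, HLA-B, HLA-C and TAP2, against 21.2% of all promoters, and the inverted CCAAT box ATTGG in B2M, HLA-B, HLA-C, HLA-F and TAP1, against 32.0%. The gamma-activated site TTCNNNGAA was found upstream of the second annotated start of TAP1 and in 6.57% of all promoters. In the 3 heavy chain genes the ISRE form lies at a like distance, beginning 155 bases upstream in HLA-B, 151 in HLA-C and 156 in HLA-F. In TAPBP the ISRE consensus matches at 2 overlapping places, beginning 20 and 14 bases upstream, the nearest to a start. A match describes letters only, and whether any factor was bound was not measured.

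**Figure D1:**
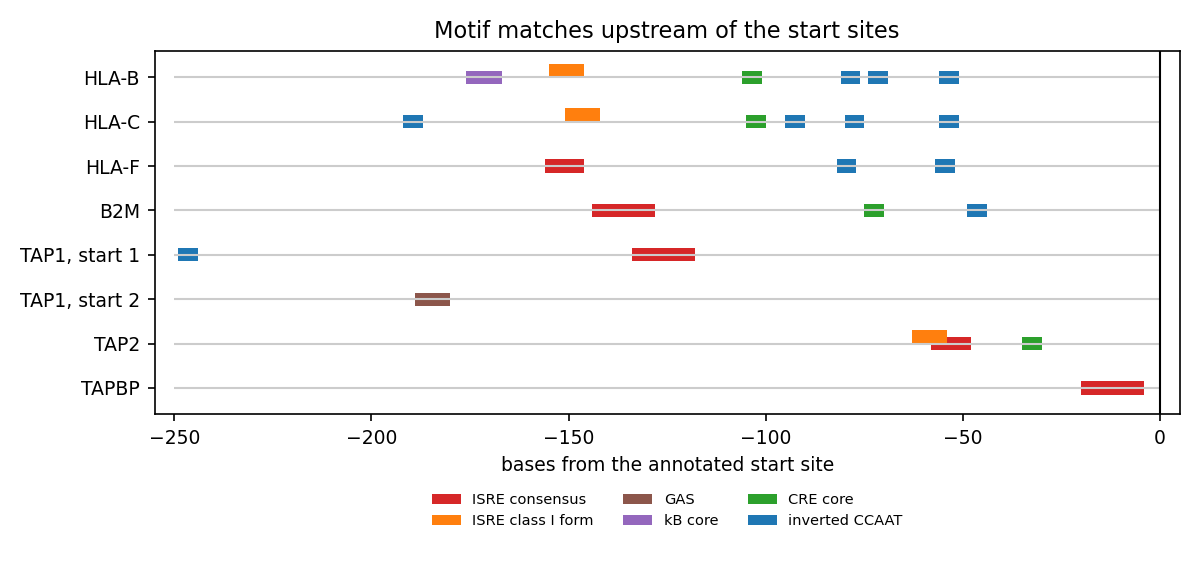
Positions of the motif matches in the 250 bases upstream of each annotated start site, in bases from the start, with 1 line per promoter and 1 colour per motif. An ISRE form (red or orange) is present in all 7 genes. The consensus form was added after these promoters were seen, and the share of all promoters with either form is not given. TAP1 has 2 annotated starts, and both were searched.

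Levels are in FPKM, fragments per length of transcript and per mapped fragments of the library, so that levels can be compared between genes. The FPKM values do not fall in steps of whole reads, so the depth of the libraries is unknown. They sum to between 367412 and 404922 per library. PTBP1, the targeted gene (chr19:797075-812327), was at 110.7, 111.9 and 124.4 FPKM in the control, 66.2, 64.4 and 61.0 FPKM in the early knockdown and 49.7, 50.7 and 51.0 FPKM in the late knockdown. It was lower in both knockdown groups, with no overlap between the groups. Against the control, its log2 fold change was -0.85 in the early knockdown (limma adjusted p = 0.00314) and -1.19 in the late knockdown (limma adjusted p = 3.77e-07). At 3 dpi the targeted gene itself was thus under the 2-fold change required of a gene to pass. In bulk RNA, a change in the number of cells that express a gene and a change in the RNA per cell cannot be told apart.

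At 3 dpi the knockdown was compared with the control. The genes and tests were chosen with earlier results of these data known, so this comparison is not independent of the choice. For none of the 9 genes was a difference larger than the spread between libraries detected. The libraries of the early knockdown and the control overlapped for all 9, while 10.8% of the 15551 genes tested had no overlap between these groups in either direction. With limma on log2(FPKM + 0.1) and Benjamini-Hochberg adjustment over the 15551 genes, 0 of the 9 passed the thresholds of a 2-fold change and an FDR of 0.05, where 0.0129% of all genes did, and 0 of the 9 had an unadjusted p under 0.05, against 1126 genes in all. The log2 fold changes ran from -0.14 for HLA-E to 0.16 for TAPBP, with 5 above and 4 below 0. Their median was 0.0030, and that of all genes was 0.00995. TAPBP had the lowest p of the 9, with a standard error of 0.077 and a limma adjusted p of 0.716. The 95% intervals of the log2 fold changes lay within -0.42 and 0.49 for all 9 genes, so that a change of 2-fold in either direction lies outside each of them.

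Of the heavy chains, HLA-B had the largest difference at 7 dpi. Its gene entry in GENCODE v29 (GRCh38, chr6:31269491-31357188, minus strand) is long, and 1 of the 10 transcripts in it reaches into HLA-C. HLA-B encodes a classical heavy chain, which is highly polymorphic and presents peptides to CD8 T cells. It was at 13.5, 19.7 and 20.7 FPKM in the control, 16.2, 19.3 and 23.3 FPKM in the early knockdown, and 4465, 4497 and 4689 FPKM in the late knockdown. The 7 dpi libraries lay far above all 3 dpi libraries and close to each other. The group means were 17.96 ± 3.87, 19.6 ± 3.53 and 4550.4 ± 121 FPKM (SD, n = 3 each), and the log2 fold change from early to late knockdown was 7.87 (standard error 0.162), a ratio of means of 232. It ranks first among the genes tested by the size of its log2 fold change upward.

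HLA-C (chr6:31268749-31272130), the other classical heavy chain among the 9 genes, was at 59.2, 81.8 and 82.8 FPKM in the control, 61.8, 70.5 and 85.2 FPKM in the early knockdown, and 3054, 3152 and 3293 FPKM in the late knockdown. The log2 fold change from early to late knockdown was 5.46 (standard error 0.144), smaller than that of HLA-B. HLA-C was above HLA-B in each of the 6 libraries of 3 dpi and below it in each of the 3 libraries of 7 dpi. The ratio of HLA-B to HLA-C was 0.229 to 0.274 at 3 dpi and 1.42 to 1.46 at 7 dpi.

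HLA-E and HLA-F are nonclassical heavy chains, and HLA-E presents leader peptides of other class I chains to natural killer cell receptors. HLA-E (chr6:30489467-30494205) was at 73.4, 88.9 and 102.6 FPKM in the control, 76.8, 79.8 and 82.5 FPKM in the early knockdown, and 869, 872 and 848 FPKM in the late knockdown. The libraries of 7 dpi stood together above all others, and the log2 fold change from early to late knockdown was 3.44 (standard error 0.108). HLA-F (chr6:29722775-29738528) was at 8.30, 10.02 and 14.0 FPKM in the control, 10.4, 10.3 and 12.6 FPKM in the early knockdown, and 293, 301 and 313 FPKM in the late knockdown. Its log2 fold change was 4.76 (standard error 0.161), between those of HLA-E and HLA-C, so that the gene with the lowest level of the 4 at 3 dpi, HLA-F, did not have the smallest difference.

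The makeup of the heavy chain transcripts differed between the times. HLA-B held 8.76% to 11.4% of the summed FPKM of the 4 heavy chains in the libraries of 3 dpi and 51.0% to 51.4% in those of 7 dpi. HLA-E held 40.5% to 47.5% at 3 dpi and 9.27% to 10.02% at 7 dpi, while HLA-C held 37.4% to 41.8% and 35.2% to 36.0%. The sum itself was 191.7 ± 33.7 FPKM in the control, 182.9 ± 19.4 FPKM in the early knockdown and 8882 ± 237 FPKM in the late knockdown (SD, n = 3 each), and its log2 fold change from early to late knockdown was 5.61. Class I genes share sequence, and how the authors divided reads among them is not given in the sources used here. Between 1.70% (HLA-F) and 6.79% (HLA-C) of the stretches of 50 bases in 1 GENCODE transcript of each heavy chain also occur in a transcript of another gene. The part of read sharing in these differences between heavy chains was not tested, and the summed value does not depend on how reads were divided among the 4.

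**Figure D2:**
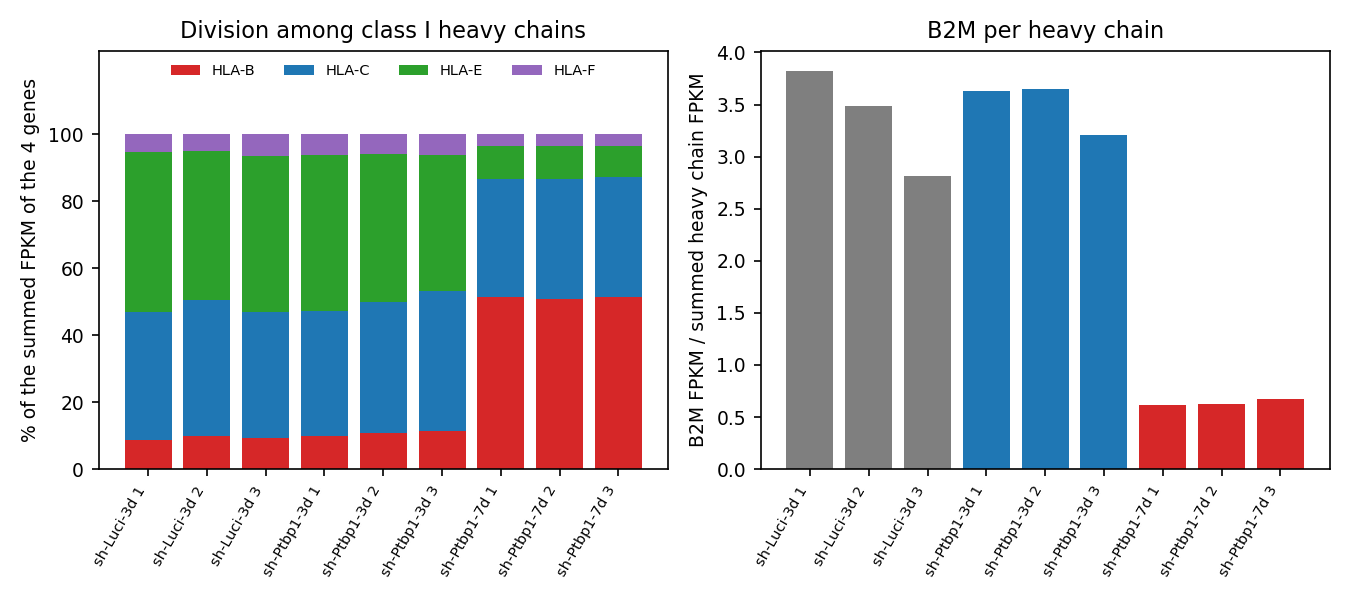
Left, the share of HLA-B, HLA-C, HLA-E and HLA-F in their summed FPKM in each of the 9 libraries, in percent. Right, B2M FPKM divided by the summed FPKM of these 4 heavy chains, with bars coloured by group. The libraries of 7 dpi have 51.0% to 51.4% HLA-B, and a B2M ratio of 0.612 to 0.672 against 2.81 to 3.82 at 3 dpi.

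B2M (chr15:44711487-44718877) lies outside the HLA region, and none of its stretches of 50 bases occurs in another gene's transcripts. It was at 591, 698 and 619 FPKM in the control, 599, 656 and 653 FPKM in the early knockdown, and 5316, 5496 and 6142 FPKM in the late knockdown. It was the most abundant of the 9 genes in every group, and its group means ranked 71, 76 and 3 among all entries. The log2 fold change from early to late knockdown was 3.15 (standard error 0.10), smaller than that of each of the 4 heavy chains. The light chain was 2.81 to 3.82 times the summed 4 heavy chains in the libraries of 3 dpi and 0.612 to 0.672 times at 7 dpi. These are ratios of RNA, and protein was not measured.

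Of the transporter subunits, TAP1 (chr6:32845209-32853978) was at 20.2, 32.8 and 36.0 FPKM in the control, 27.3, 26.9 and 33.3 FPKM in the early knockdown, and 359.1, 359.8 and 329.7 FPKM in the late knockdown, a log2 fold change of 3.59 (standard error 0.182) from early to late knockdown. TAP2 (chr6:32821833-32838780) was at 12.8, 17.2 and 18.6 FPKM, then 15.3, 14.8 and 16.6 FPKM, and then 77.3, 74.3 and 63.0 FPKM in the same order, a log2 fold change of 2.19 (standard error 0.135). Both were higher in every 7 dpi library, and TAP1 more so, since the ratio of TAP1 to TAP2 was 1.58 to 2.01 at 3 dpi and 4.64 to 5.24 at 7 dpi. PSMB9, an immunoproteasome gene, overlaps TAP1 on the opposite strand in this annotation, and whether counting used strand is not given in the sources used here. Of the stretches of 50 bases in the TAP2 transcript, 80.2% also occur in AL669918.1, an overlapping gene on the same strand, which was listed at 0.0854 ± 0.0902, 0.0242 ± 0.0369 and 0.544 ± 0.269 FPKM (SD, n = 3 each) in the 3 groups. How reads were divided between TAP2 and AL669918.1 is therefore uncertain.

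TAPBP (chr6:33299694-33314387) differed least. It was at 55.7, 58.1 and 63.7 FPKM in the control, 66.0, 62.0 and 70.1 FPKM in the early knockdown, and 105.5, 103.8 and 103.2 FPKM in the late knockdown. The 7 dpi libraries again lay above all others, but the log2 fold change was 0.66 (standard error 0.077) against the early knockdown and 0.82 against the control, both under a 2-fold change. NLRC5 (chr16:56989485-57083531) was at 8.60, 13.0 and 10.7 FPKM in the control, 9.48, 10.6 and 9.83 FPKM in the early knockdown, and 46.4, 50.5 and 38.4 FPKM in the late knockdown. Its log2 fold change from early to late knockdown was 2.16 (standard error 0.147), close to that of TAP2 and below those of B2M, TAP1 and the 4 heavy chains.

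**Figure D3:**
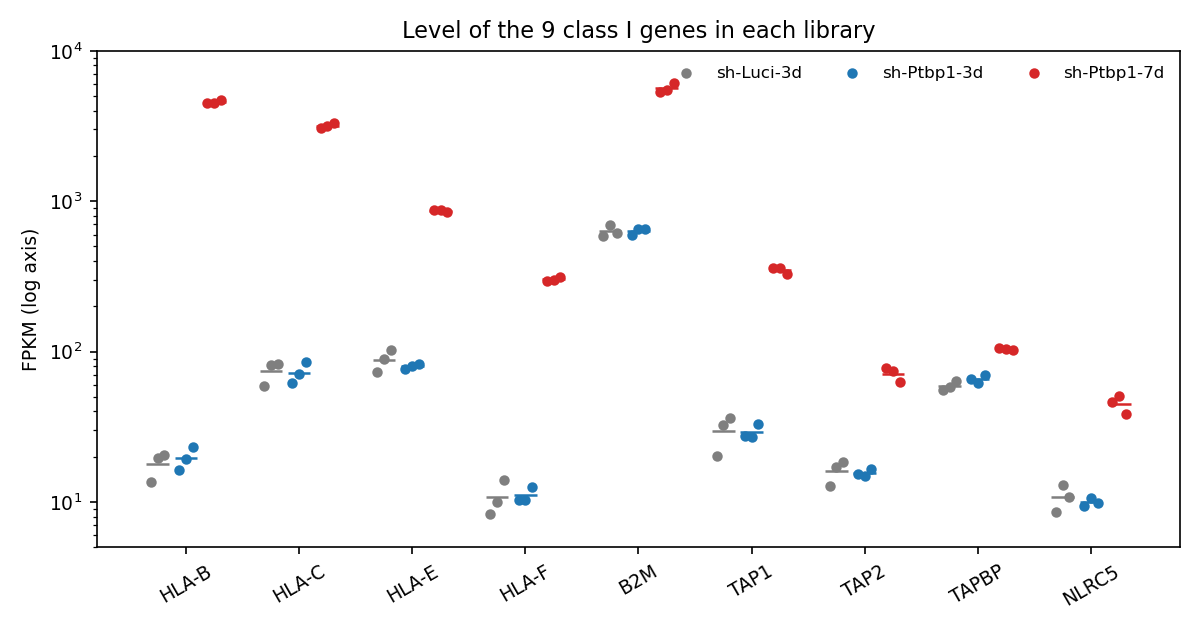
FPKM of the 9 genes on a log axis, with 1 point per library, 3 libraries per group, and a line at each group mean. The 2 groups of 3 dpi overlap for each gene, and the late knockdown libraries lie above them, least for TAPBP (103.2 to 105.5 FPKM).

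The order of the levels also differed between the times. At 3 dpi B2M stood above the rest, followed in both groups by HLA-E, HLA-C and TAPBP, whose neighbours overlapped, and then by TAP1, HLA-B, TAP2, HLA-F and NLRC5. In the control each neighbour from TAP1 downward overlapped the next, and in the early knockdown HLA-B overlapped TAP2 and HLA-F overlapped NLRC5. At 7 dpi the order was B2M, HLA-B, HLA-C, HLA-E, TAP1, HLA-F, TAPBP, TAP2 and NLRC5, with no overlap between any neighbours. HLA-B moved from rank 6 of the 9 to rank 2, and its mean ranked 5 among all entries of the table, with HLA-C at 7. The 9 genes together held 0.218% to 0.263% of the summed FPKM in the libraries of 3 dpi and 3.97% to 4.17% in those of 7 dpi.

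At 3 dpi the libraries of a group also differed in a way most of the genes shared. In the control, replicate 1 was the lowest for 9 of the 9 genes, and it was the lowest for 24.2% of all genes tested. Replicate 3 of the early knockdown was the highest for 7 of the 9 genes and for 19.9% of all genes, and replicate 3 of the control was the highest for 7 of the 9 and for 36.9%. In the late knockdown the genes divided, with replicate 3 the lowest for 5 of the 9 and the highest for 4. It was the lowest for 47.1% and the highest for 29.3% of all genes. The spread within a group was smaller at 7 dpi for the heavy chains, with a coefficient of variation of 2.66% for HLA-B there against 21.5% in the control and 18.02% in the early knockdown. It was largest at 7 dpi for NLRC5, at 13.6%, and TAP2, at 10.6%.

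Across the 9 genes, 8 passed the thresholds of a 2-fold change and an FDR of 0.01 from early to late knockdown, all higher at 7 dpi, while 8.31% of all genes tested passed upward and 14.2% in either direction. All 9 had no overlap between these groups, as did 35.3% of all genes in this direction. Against the control the same 8 passed, beside 8.93% of all genes upward and 14.6% in either direction. These counts follow from how the genes were selected, and nothing is read from them. The median log2 fold change of the 9 was 3.44 against the early knockdown and 3.30 against the control, where the medians of all genes were 0.092 and 0.099. The comparisons share the late knockdown libraries, and the values of each gene stand side by side in the plot of log2 fold changes.

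**Figure D4:**
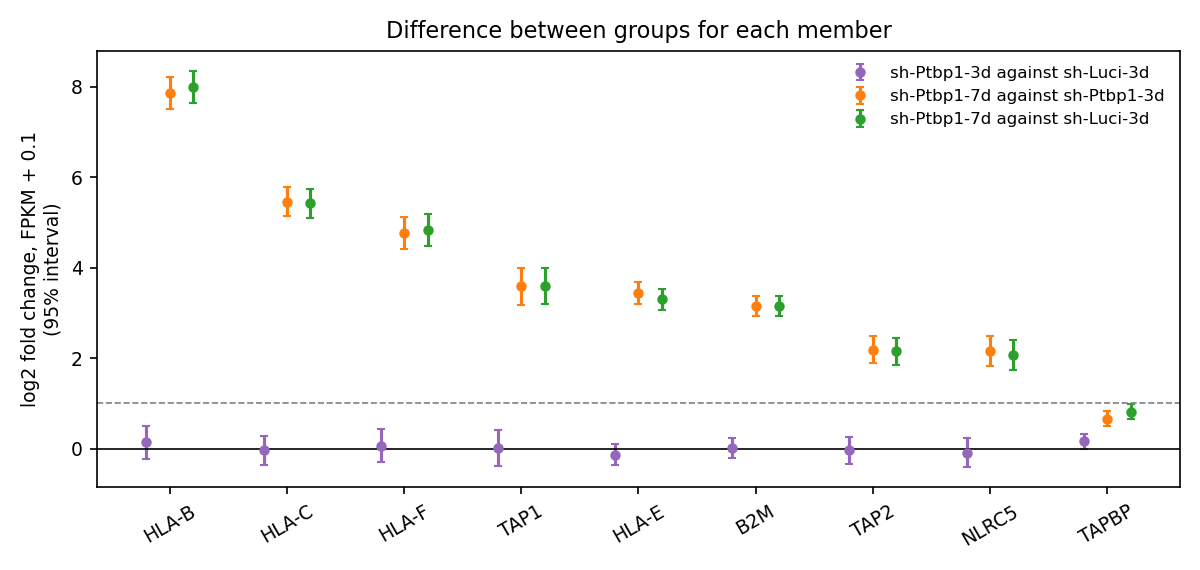
Log2 fold change of FPKM + 0.1 for the 9 genes in the 3 comparisons, with 95% intervals from limma and a dashed line at a 2-fold change. Values at 7 dpi run from 0.66 for TAPBP to 7.87 for HLA-B against the early knockdown, and intervals at 3 dpi all include 0.

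The rest of the pathway was examined through 6 lists of 75 genes, of which 72 are in the table, 7 are listed at 0 in all libraries and 61 passed the filter on low values. From early to late knockdown, 16 of the 61 rose and 0 fell past the thresholds in limma, and 45 did not pass. The 16 are 26.2% of the 61, where 8.31% of all genes passed upward and 5.90% downward. The lists were chosen with earlier results of these data known, so nothing is read from this share. At an unadjusted p under 0.05 in limma, 29 were higher and 15 lower. Against the control 15 rose and 0 fell past the thresholds in limma, where 8.93% of all genes passed upward and 5.68% downward. In that comparison 26 were higher and 16 lower at an unadjusted p under 0.05. Between the groups of 3 dpi 0 of the 61 passed in limma, with 1 at an unadjusted p under 0.05, and each list's median log2 fold change at 3 dpi lay between -0.27 and 0.028.

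Among the other class I heavy chains and class I-like genes examined, 1 of the 4 tested rose. FCGRT, which encodes the heavy chain of the neonatal Fc receptor and also pairs with beta-2-microglobulin, rose from 4.96 ± 0.136 to 28.1 ± 0.993 FPKM (SD, n = 3 each), 2.48 on the log2 scale (limma adjusted p = 1.41e-07). The other 3 tested did not pass the thresholds and differed in direction. HFE, the hemochromatosis protein, which also pairs with beta-2-microglobulin, was at 7.69 ± 0.435 FPKM in the early knockdown and 4.01 ± 0.298 FPKM in the late knockdown (SD, n = 3 each), or -0.92 on the log2 scale (limma adjusted p = 0.000478). PROCR had -0.56 and MR1 0.47 (limma adjusted p = 0.00135 and 0.0144), and the median of the 4 was -0.045. HLA-G and CD1D were listed at 0 in all 9 libraries. Of the ligands of NKG2D, the activating receptor of natural killer cells, 0 of the 5 tested passed both thresholds from early to late knockdown in limma. At an unadjusted p under 0.05 there were 2, MICA and ULBP2, both lower, and 1 more gene was listed at 0. Their log2 fold changes were -0.31 and -0.45 (limma adjusted p = 0.00605 and 0.00967), so they missed only the fold threshold. MICA, chosen after its values were seen as the most abundant of these ligands, was at 136.1 ± 3.42 FPKM in the early knockdown and 110.0 ± 5.46 FPKM in the late knockdown (SD, n = 3 each).

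Loading and trimming in the endoplasmic reticulum held 5 genes of 9 that rose, and none fell past the thresholds. TAPBPL, a tapasin-related peptide editor, rose from 0.191 ± 0.0719 to 2.32 ± 0.319 FPKM, 3.08 on the log2 scale (limma adjusted p = 4.76e-06). ERAP1, an aminopeptidase that trims peptides, rose from 7.16 ± 0.602 to 20.9 ± 2.32 FPKM, 1.53 on the log2 scale (limma adjusted p = 4.31e-06). PDIA3, a disulfide isomerase of the loading complex, rose from 70.4 ± 1.76 to 183 ± 11.4 FPKM, 1.38 on the log2 scale (limma adjusted p = 2.76e-07), all SD with n = 3 each. The others were CALR and ERAP2, with log2 fold changes of 1.07 and 1.04, and against the control ERAP2 was at 0.97 and did not pass the fold threshold. At an unadjusted p under 0.05 in limma, 7 of the 9 were higher and 2 lower from early to late knockdown. The 2 lower were UGGT1 and CANX, at -0.60 and -0.30 on the log2 scale (limma adjusted p = 0.000872 and 0.0485). Both were under a 2-fold change and were named after their values were seen. TAPBPL remained far below its relative TAPBP in level, at 2.32 against 104.1 FPKM in the late knockdown.

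Peptide supply in the cytosol held 6 genes of 14 that rose, and none fell past the fold threshold. PSMB9, a catalytic subunit of the immunoproteasome, was at 2.92, 4.27 and 5.09 FPKM in the early knockdown and 89.9, 93.0 and 71.8 FPKM in the late knockdown, 4.37 ± 0.217 (standard error) as a log2 fold change, with a limma adjusted p of 9.64e-08. LAP3, a leucine aminopeptidase, and PSME2, a subunit of the proteasome activator PA28, followed with log2 fold changes of 1.53 and 1.26 (limma adjusted p = 7.04e-07 and 9.57e-07). The other 3 were PSMB8, PSME1 and PSMB10, with 1.205, 1.18 and 1.11. The list's median was -0.25, since the 8 genes that did not pass lay below 0. Among them were the constitutive catalytic subunits PSMB5, PSMB6 and PSMB7, named after their values were seen, with log2 fold changes of -0.46, -0.68 and -0.70 (limma adjusted p = 0.0218, 0.000473 and 6.22e-05), all under a 2-fold change.

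Among factors that act on class I promoters, 1 of the 16 examined rose past the thresholds, where 8.31% of all genes passed upward. Nothing is read from this count. IRF1, an interferon regulatory factor that binds ISREs, was at 9.27, 9.003 and 11.5 FPKM in the early knockdown and 35.9, 39.9 and 37.8 FPKM in the late knockdown, 1.93 ± 0.133 (standard error) as a log2 fold change, with a limma adjusted p of 9.81e-07. IRF2, NFKB1 and RELA were also higher, at 0.74, 0.46 and 0.27 (limma adjusted p = 0.000300, 0.00109 and 0.00766). EZH2 was lower, at -0.56 (limma adjusted p = 0.000183). They missed only the fold threshold. At an unadjusted p under 0.05 in limma, 7 of the 16 were higher, IRF1 among them, and 1 was lower. Of the interferons, their receptors and JAK-STAT genes, 3 of 13 tested rose. STAT2, a transcription factor of the type I interferon signal, and the kinase JAK2 had log2 fold changes of 1.498 and 1.26 (limma adjusted p = 2.96e-07 and 2.32e-05). IFNB1, a type I interferon, was listed at 0 in all control libraries, at 0, 0.116 and 0 FPKM in the early knockdown and at 0.567, 0.294 and 0.762 FPKM in the late knockdown (limma adjusted p = 0.00138). These IFNB1 levels are below 1 FPKM in every library, and IFNG, IFNK, IFNL2 and IFNL3 were listed at 0 throughout. IFNE, another type I interferon, had means of 1.35, 1.02 and 0.977 FPKM in the 3 groups, with overlap between the early and late knockdown. The kinase JAK1 was lower in the late knockdown, at -0.59 on the log2 scale (limma adjusted p = 0.000573), which did not pass the fold threshold. IRF9, IFNGR1 and IFNGR2 of the same list were higher, at 0.86, 0.66 and 0.54 (limma adjusted p = 0.000840, 0.00109 and 0.00140). They did not pass the fold threshold either. At an unadjusted p under 0.05 in limma, 7 genes of this list were higher, among them those that passed, and 1 was lower. IRF2, NFKB1, RELA, EZH2, IFNE, JAK1, IRF9, IFNGR1 and IFNGR2 were named after their values were seen.

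**Figure D5:**
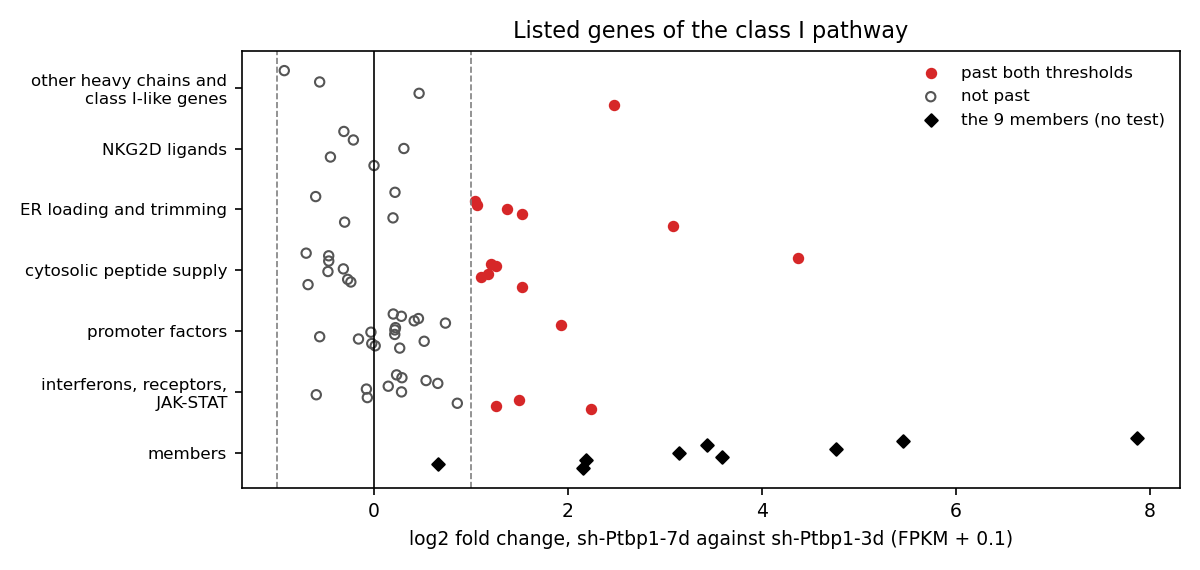
Log2 fold change from early to late knockdown of the 61 tested genes of 6 pathway lists, with 1 point per gene, filled where both thresholds were passed, and the 9 genes described here as diamonds. Dashed lines mark a 2-fold change, and 16 listed genes lie past it on the right and 0 on the left.

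Markers of other cell types were examined because immune cells carry high class I levels. Of 16 blood and immune cell markers, 6 were listed at 0 in all libraries, among them CD3D, CD3E, MS4A1 and TYROBP. All 16 had a mean under 1 FPKM in each group, and their summed level was 0.970 to 1.59 FPKM in the control, 0.696 to 0.897 FPKM in the early knockdown and 0.890 to 1.52 FPKM in the late knockdown. The summed level of 8 glioma and astroglial markers was 4468 to 4594 FPKM, 4578 to 4887 FPKM and 1392 to 1513 FPKM in the same order, mostly VIM, the intermediate filament vimentin, whose log2 fold change at 7 dpi against the early knockdown was -1.91 (limma adjusted p = 9.79e-08). CD44 also fell, by 1.41 on the log2 scale, and S100B rose by 2.08. The astroglial markers GFAP and S100B were low in every group, with means of at most 0.586 and 0.797 FPKM, while SOX2, a stem cell factor of glioma, had means of 105.7, 124.5 and 144.8 FPKM. The 8 neuronal markers summed to 483 to 520.4 FPKM, 554 to 567.8 FPKM and 250.1 to 258 FPKM, most of it TUBB3 and NEFL, which were lower at 7 dpi by log2 fold changes of -1.42 and -1.22. Of the other neuronal markers, MAP2 and SNAP25 were higher in the late than in the early knockdown. DCX, STMN2, RBFOX3 and SYN1 had lower means there, at most 0.124 FPKM in the late knockdown. MAP2, a microtubule-associated protein of neurons, went from 20.3 ± 3.25 to 38.9 ± 4.22 FPKM from early to late knockdown (SD, n = 3 each). This was 0.94 on the log2 scale and did not pass the fold threshold (limma adjusted p = 0.000580). SNAP25, a protein of synaptic vesicle fusion, had 0.72 (limma adjusted p = 0.0177) and did not pass, and against the control it passed upward with 1.69 (limma adjusted p = 9.16e-05). Replicate 3 of the early knockdown stood apart from the other libraries of its group for STMN2, DCX and SNAP25. STMN2 was at 11.5 FPKM there and listed at 0 in the other 8 libraries, DCX was at 0.0346, 0.0345 and 2.14 FPKM in the early knockdown, and SNAP25 was at 2.05, 2.14 and 3.86 FPKM. The part of this change in glioma and neuronal markers in the class I levels was not tested.

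The genes whose pattern over the 9 libraries was most like the mean of the 9, among 11340 genes with a symbol and a mean of at least 1 FPKM, were CXCL16, CSF1, APOL1, LY6E and IFITM1. Their Pearson r with the mean standardized profile was 0.9996, 0.9993, 0.9991, 0.9989 and 0.9988, as a description over 9 libraries in which the groups of 3 dpi and 7 dpi account for most of the range. LY6E went from 25.3 ± 8.51 to 2150 ± 112 FPKM and CXCL16 from 2.06 ± 0.0642 to 35.7 ± 0.932 FPKM from early to late knockdown (SD, n = 3 each). In all, 166 genes had an r above 0.99, and the 9 genes themselves had r between 0.979 for TAPBP and 0.999 for TAP1.

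Of the loci that the authors assembled from the reads, 2 lie within 10 kb of one of the 9 genes. MSTRG.8732 lies 177 bases before the start of B2M on the opposite strand (chr15:44697225-44711310). It was at 0.110, 0.219 and 0 FPKM in the control, 0, 0.209 and 0 FPKM in the early knockdown, and 0.379, 0.867 and 0.614 FPKM in the late knockdown. From early to late knockdown the log2 fold change was 2.25 (standard error 0.551, limma adjusted p = 0.00610), and against the control the adjusted p of 0.0158 did not pass. MSTRG.23186, which begins 2680 bases beyond HLA-F on the opposite strand, was at 1.24 ± 0.0911, 1.13 ± 0.264 and 1.21 ± 0.356 FPKM (SD, n = 3 each) in the 3 groups, with overlap between all of them.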

How the data were processed

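The authors extracted total RNA with TRIzol, sequenced it on Illumina HiSeq, filtered the reads and compared them to the reference, and deposited FPKM values per gene and library and, as values of another kind, coordinates of assembled loci. HISAT2 and GRCh38 are named in the submitters' processing notes, and the counting program, annotation and strandedness are not given in the sources used here. Both ends of 49.6% of 43315 assembled exons match GENCODE v29 exons, and its gene positions are printed.

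Log2(FPKM + 0.1) was computed for the 15551 genes averaging 0.1 FPKM or more, and was fitted with limma 3.58.1 (R 4.3.3), all 9 libraries in 1 model of 3 groups with an intensity trend, and adjusted by Benjamini-Hochberg. Fold changes of low genes are understated on this scale. Thresholds were those of the study's methods for the comparisons it names, and those from early to late knockdown were also used from control to late knockdown, and an exact permutation test of 3 against 3 cannot go below p = 0.1. The genes, lists and tests were chosen with earlier results of these data known. Named were the 9 genes, PTBP1, up to 3 largest rises and falls past the thresholds per list, the 5 most alike genes and the assembled loci within 10 kb, and other names were chosen after values were seen. Some genes of the lists are not reported here and were left out of the list counts. The ISRE consensus was added to the motifs after the promoters were seen. Promoters came from RefSeq (GRCh38.p14). Shared stretches were counted in GENCODE v29 transcripts. Alternatives were other pseudocounts, filters, scalings, no trend, only the groups compared, a replicate block, leaving out each library and summed heavy chains. Python 3.11.15, pandas 2.3.3 and matplotlib 3.10.9 were used.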

Additional observations from a re-analysis of the deposited data

How the results depend on the processing

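The differences of the 9 genes at 7 dpi kept their direction under every alternative run, from 7.74 to 7.998 for HLA-B and from 0.59 to 0.76 for TAPBP against the early knockdown on the log2 scale, and no value at 3 dpi passed, with a lowest adjusted p of 0.0774 for TAPBP in limma. Small values at 3 dpi changed sign. B2M came to -0.018 with TPM, -0.0076 with median-ratio scaling and -0.060 with quantile normalization, TAP1 to -0.0100 with TPM and -0.0032 with quantile normalization, and the heavy chains, with a median of 0.016, to -0.057 when the 4 were summed. With each library left out in turn, the log2 fold change at 3 dpi ran from -0.056 to 0.26 for HLA-B, -0.19 to 0.072 for HLA-C, -0.10 to 0.27 for HLA-F, -0.048 to 0.072 for B2M, -0.24 to 0.17 for TAP1, -0.20 to 0.068 for TAP2 and -0.24 to 0.051 for NLRC5. Quantile normalization moved the median of the 9 from early to late knockdown to 3.77, and that of all genes from 0.092 to -0.010. Of all genes, 2 passed at 3 dpi, and 1 did with no trend, a pseudocount of 0.01, TPM, quantile normalization, median-ratio scaling or a filter at a mean of 1 FPKM, 0 with only the groups compared, and 0 to 59 with each library left out, the 59 without replicate 3 of the control. A pseudocount of 1 gave 1255 genes from early to late knockdown, against 2211, and 1269 from control to late knockdown, against 2271. The causes were not tested. Same-numbered libraries did not deviate together (correlations from -0.019 to 0.058 over 9 pairs), and with a replicate block 0 genes passed at 3 dpi and 2140 from early to late knockdown, with 16 of the listed genes, as without it. The unknown depth gives no limit for values near 0, such as those of IFNB1 and MSTRG.8732.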

Other observations

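Between HLA-F and TAPBP (chr6:29722775-33314387) the authors assembled 17 loci beside the named genes, and 14 passed the filter on low values. This span was examined after values were seen. From early to late knockdown, 7 of the 14 rose and 0 fell past the thresholds in limma, with 1 lower at an unadjusted p under 0.05, beside 8.15% of the 1927 assembled loci tested that rose. MSTRG.23249, on the plus strand (chr6:31463126-31470112), had 0.0398 ± 0.0161, 0.0733 ± 0.0149 and 7.39 ± 0.0857 FPKM in the control, early and late groups (SD, n = 3 each), 5.44 on the log2 scale from early to late knockdown (limma adjusted p = 1.79e-08). MSTRG.23205, on the plus strand (chr6:30259569-30273964), had 0.814 ± 0.211, 0.858 ± 0.174 and 17.8 ± 13.0 FPKM in these groups, 4.003 on the log2 scale (limma adjusted p = 1.56e-05), with a wide spread among the libraries of 7 dpi.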
